A study of Saccharomyces cerevisiae with 16 samples.

Results

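The comparison concerns yeast grown free in batch culture and harvested at an absorbance (Abs600) of 2 or of 0.5. Its members are the 4 libraries that the labels assign to unencapsulated cells, 2 at each density, of 16 libraries in all. All 16 come from Saccharomyces cerevisiae BY4741, a laboratory haploid (Mat a) that carries mutant alleles of his3, leu2, ura3 and met15. Cells grew at 30 ºC in YPD, a rich medium whose carbon source is 2% glucose. The series' description calls the pair at each density biological duplicates. Whether same-numbered cultures of the 2 densities shared a day or an inoculum is not stated, nor whether the batch cells were fixed with ethanol. The other groups are microcolonies grown from single cells inside alginate particles: unsorted particles (3 libraries), big colonies (3), small colonies (4) and particles left unfixed (2). RNA was read by the 3′T-fill method, which sequences the junction of transcript and poly(A) tail. Each tag is taken to mark the end of a transcript to the base.

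Budding yeast ferments glucose to ethanol while it grows, and keeps genes for respiration, storage carbohydrates and stress protection low while glucose is plentiful. As a batch culture thickens and glucose is drawn down, low-affinity hexose transporters give way to high-affinity ones, the stress programme driven by Msn2 and Msn4 comes on, and growth genes controlled by TOR and protein kinase A, above all those for ribosomes, decline. Transcript ends are set by cleavage and polyadenylation, and most yeast genes have several alternative poly(A) sites after the stop codon.

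The 4 libraries held 2312361 and 1665301 tags at Abs600 0.5, and 3224323 and 3552293 at Abs600 2. Between 95.07% and 96.21% of the tags fell on a protein-coding gene, in its open reading frame (ORF) or up to 400 nt after it. The share of gene tags inside the ORF was 10.81% and 17.96% at Abs600 0.5, and 18.97% and 6.759% at Abs600 2, so it differed more inside a density than between densities. Replicates at Abs600 2 were further apart than those at 0.5. Of 4883 genes with a mean of at least 5 CPM (tag counts scaled by the library's gene tags, with TMM factors), 25.82% differed over 2-fold between the 2 libraries at Abs600 2 and 12.7% between those at 0.5. No MET17 tag (the gene of the met15 allele) and no tag inside the LEU2 or URA3 ORF was counted in the 4 libraries. The HIS3 ORF had 8 tags in replicate 2 at Abs600 2 and 0 in each of the others. Markers of a cells were present throughout, with 329 to 1286 tags of MFA1, the a-factor gene. Markers of alpha cells and of sporulation had at most 19 tags in a library, the maximum being MF(ALPHA)1 in replicate 2 at Abs600 2.

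No gene of 5445 tested passed an adjusted p of 0.05 in edgeR's quasi-likelihood test, a share of 0%. The lowest adjusted p was 0.0575. At an unadjusted p under 0.05 stood 542 genes, 286 of them higher at Abs600 2 (5.25% of the genes tested) and 256 lower (4.7%). DESeq2, fitted to the same 12 libraries, called 65 genes higher (1.33% of the 4900 genes to which it gave an adjusted p) and 39 lower (0.796%). limma-voom called 8 higher and 1 lower. The levels are therefore given as values in each library, those of replicates 1 and 2 at Abs600 0.5 first and those at Abs600 2 after them. CPM are shares of a library's gene tags from many cells, so more cells carrying a transcript and more of it per cell cannot be told apart. A gene is said to have been called by DESeq2 where it passed that alternative test, and every fold change and adjusted p is edgeR's, as the log2 ratio of Abs600 2 to 0.5. Tags inside the ORF alone allowed a test of 2883 genes, with 0 called, and there HXT1, EMI2, TPS1, RPL3, RPL18B and RPS14B had the opposite sign. Genes beyond those that the naming rule fixes were chosen after their values were seen. Where the levels of the 2 groups are said not to overlap, this describes the libraries and is no test. With 2 libraries against 2 an exact permutation test cannot go below p = 0.333, and the share of such genes over all genes is not given.

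The hexose transporters, which carry glucose across the plasma membrane, differed from each other. HXT1, a low-affinity transporter made in high glucose, stood at 70.5 and 120 CPM at Abs600 0.5 and at 9.14 and 5.55 CPM at Abs600 2. The log2 fold change was -3.69 ± 0.98 (SE; adjusted p = 0.160, edgeR). HXT2, a high-affinity carrier, stood at 136 and 231 CPM and at 43.7 and 8.88 CPM, a log2 fold change of -2.81 ± 0.68 (adjusted p = 0.119, edgeR). DESeq2 called both genes lower, and their groups did not overlap. HXT7, another high-affinity carrier, went the other way without passing either test, from 6.87 and 11.02 CPM to 43.7 and 34.4 CPM. Its log2 fold change was 2.13 ± 1.33 (adjusted p = 0.613, edgeR), and its near-identical neighbour HXT6 stayed under 6 CPM in the 4 libraries. Tags shared by that pair of genes could have been split between them.

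HXT3, a low-affinity carrier, was at 265 and 412 CPM against 413 and 130 CPM, and HXT4 at 7.33 and 18.6 CPM against 38.9 and 16.9 CPM. In both genes the groups overlapped. GAL2, the galactose transporter, overlapped as well, at 20.2 and 33.1 CPM against 23.4 and 16.1 CPM. HXT5, HXT10 and HXT17 were under 5 CPM in every batch library. HXT8, HXT9, HXT11, HXT13, HXT14, HXT15 and HXT16 had at most 1 tag in a batch library and were not tested. Over the 10 transporters tested the median log2 fold change was -1.34, against 0.03 over all genes. That list median rests on few genes with tags: it was -0.39 when the 4 batch libraries were fitted alone, and its direction turned to 0.39 with ORF tags alone.

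The enzymes that phosphorylate the imported sugar separated by isoform. HXK1, the hexokinase that glucose represses, stood at 48.6 and 72.3 CPM at Abs600 0.5 and at 644 and 381 CPM at Abs600 2. The log2 fold change was 3.09 ± 0.62 (adjusted p = 0.0689, edgeR), and DESeq2 called it. HXK2, the hexokinase of growth on glucose, was at 232 and 246 CPM against 236 and 123 CPM, so its groups overlapped. GLK1, glucokinase, overlapped too, at 101 and 64.8 CPM against 91.4 and 130 CPM. EMI2, a paralog of GLK1, was at 66.0 and 44.1 CPM against 365 and 172 CPM, higher in both libraries at Abs600 2, and was called by DESeq2 (log2 fold change 2.28 ± 0.48, adjusted p = 0.0774, edgeR). MTH1, a repressor of transporter genes in low glucose, was at 63.2 and 152 CPM against 447 and 156 CPM, so replicate 2 at Abs600 2 was barely above replicate 2 at 0.5.

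**Figure D1:**
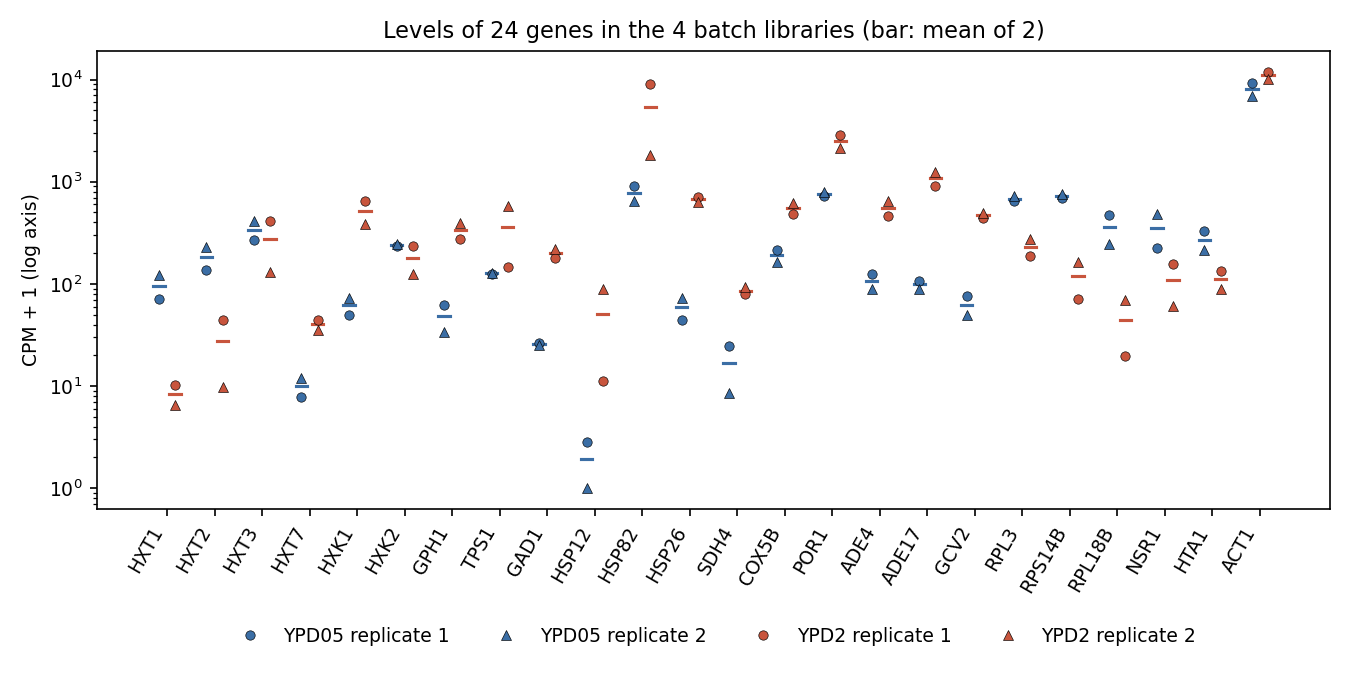
CPM plus 1 on a log axis for 24 genes in the 4 batch libraries; blue symbols are Abs600 0.5, red symbols Abs600 2, circles replicate 1, triangles replicate 2, and each bar is the mean of the 2 replicates. HXT1 and HXT2 were lower at Abs600 2 in both libraries, HXK1, GPH1 and GAD1 were higher in both, and HSP82, TPS1 and HSP12 differed widely between the 2 libraries at Abs600 2.

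In the lower part of glycolysis 2 minor isoforms were higher in both libraries at Abs600 2, and 1 of them was called by DESeq2. TDH1, the minor glyceraldehyde-3-phosphate dehydrogenase, stood at 28.9 and 42.0 CPM at Abs600 0.5 and at 614 and 204 CPM at Abs600 2 (log2 fold change 3.53 ± 0.78, adjusted p = 0.0990, edgeR; called by DESeq2). TDH2, a major isoform of the same enzyme, was at 2140 and 2209 CPM against 3029 and 2362 CPM, a log2 fold change of 0.31 ± 0.35. ENO1, an enolase isoform, stood at 89.3 and 139.9 CPM against 332 and 279 CPM, a log2 fold change of 1.42 ± 0.80 (adjusted p = 0.570, edgeR; not called by DESeq2). ENO2, the major enolase of growth on glucose, was at 4910 and 4698 CPM against 5287 and 3804 CPM, with overlapping groups. Of 21 glycolytic genes 3 were higher at an unadjusted p under 0.05 and 0 lower, against 5.25% and 4.7% of all genes. Their median log2 fold change was 0.31. BDH1, butanediol dehydrogenase, was at 127 and 110 CPM against 578 and 621 CPM, one of the 4 genes with the lowest adjusted p (log2 fold change 2.34 ± 0.42, adjusted p = 0.0575, edgeR). ADH1, the fermentative alcohol dehydrogenase, was at 2916 and 1951 CPM against 1716 and 1763 CPM.

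Several genes that yeast needs once glucose is gone had few tags at both densities, but not all of them did. FBP1, fructose-1,6-bisphosphatase of gluconeogenesis, had 0 and 0 tags at Abs600 0.5 and 0 and 1 at Abs600 2. ADH2, which oxidises ethanol, was at 11.4 and 5.51 CPM against 0 and 12.2 CPM. ACS1, the acetyl-CoA synthetase of ethanol growth, stayed under 5 CPM, and PCK1, phosphoenolpyruvate carboxykinase, was at 7.33 and 22.7 CPM against 16.9 and 17.2 CPM. The invertase gene SUC2 was under 4 CPM in each library. HAP4, the regulatory subunit of the activator of respiratory genes, was at 3.66 and 16.5 CPM against 6.43 and 1.66 CPM. MIG1, the glucose repressor, was at 5.50 and 6.89 CPM against 5.42 and 2.22 CPM. FBP1 was not tested, edgeR gave the other 6 an unadjusted p of at least 0.302, and DESeq2 gave those 6 no adjusted p. MDH2, the cytosolic malate dehydrogenase of gluconeogenesis and the glyoxylate cycle, was abundant, at 485 and 503 CPM against 1441 and 1328 CPM (log2 fold change 1.49 ± 0.65, unadjusted p = 0.0374, adjusted p = 0.465, edgeR). MLS1, malate synthase of the glyoxylate cycle, was at 1.37 and 2.07 CPM against 5.76 and 24.7 CPM. DESeq2 did not call MDH2 and gave MLS1 no adjusted p, and in both genes the groups did not overlap. Of 15 genes of gluconeogenesis and the glyoxylate cycle tested, 1 was higher and 1 lower at an unadjusted p under 0.05. The shares over all genes were 5.25% and 4.7%. The median log2 fold change of the 15 was 0.66.

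Genes of the general stress response, the common target set of Msn2 and Msn4, were the list with the largest positive median. Of 66 members tested 23 were higher at an unadjusted p under 0.05 and 0 lower, against 5.25% and 4.7% of all genes. DESeq2 called 11 of the 66 higher and 0 lower, against 1.33% and 0.796% over all genes. Their median log2 fold change was 1.26 (quartiles 0.45 and 1.99). GAD1, glutamate decarboxylase, stood at 25.2 and 24.1 CPM at Abs600 0.5 and at 179 and 216 CPM at Abs600 2, with a log2 fold change of 3.00 ± 0.51 (adjusted p = 0.0575, edgeR). DDR48, a stress protein induced by DNA damage, was at 364 and 377 CPM against 1299 and 1124 CPM (log2 fold change 1.71 ± 0.34, adjusted p = 0.0689, edgeR). Both replicate pairs of these genes were close together. PNC1, nicotinamidase, was at 121 and 66.8 CPM against 651 and 293 CPM.

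Storage carbohydrate genes belong partly to the same list. GPH1, glycogen phosphorylase, stood at 60.9 and 33.1 CPM at Abs600 0.5 and at 275 and 390 CPM at Abs600 2 (log2 fold change 2.81 ± 0.54, adjusted p = 0.0653, edgeR; called by DESeq2). NTH1, neutral trehalase, was at 37.6 and 37.2 CPM against 81.9 and 117 CPM, and PGM2, phosphoglucomutase, at 7.33 and 12.4 CPM against 35.2 and 26.4 CPM. These groups did not overlap. TPS1, trehalose-6-phosphate synthase, was at 125 and 128 CPM against 146 and 573 CPM, so the difference lay almost entirely in replicate 2. GSY2, glycogen synthase, was at 31.6 and 20.7 CPM against 26.4 and 54.7 CPM, and TSL1, a trehalose synthase subunit, stayed under 7 CPM. Of 25 genes of glycogen and trehalose metabolism 4 were higher at an unadjusted p under 0.05 and 0 lower. The shares over all genes were 5.25% and 4.7%. The median log2 fold change of the 25 was 0.51.

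The stress genes differed between the 2 cultures at Abs600 2. CTT1, cytosolic catalase, was at 8.70 and 19.98 CPM against 11.8 CPM in replicate 1 and 72.7 CPM in replicate 2. HSP12, a membrane-protecting heat shock protein, had 4 and 0 tags at Abs600 0.5 against 30 and 321 at Abs600 2 (10.2 and 89.1 CPM). SOL4, a pentose phosphate enzyme, was at 16.03 and 13.1 CPM against 38.9 and 160 CPM. In these genes, as in TPS1, replicate 2 at Abs600 2 was the higher. Some chaperone genes showed the opposite order. HSP82, the inducible Hsp90, was at 899 and 652 CPM against 8960 CPM in replicate 1 and 1833 CPM in replicate 2. HSP42, a small chaperone, was at 14.2 and 7.58 CPM against 180 and 67.4 CPM, and SSA4, an inducible Hsp70, at 16.5 and 28.2 CPM against 140 and 79.4 CPM. UBI4, the polyubiquitin gene, was at 8.25 and 17.2 CPM against 122 and 38.0 CPM, again highest in replicate 1. HSP26, a small heat shock protein, was similar in both cultures, at 43.1 and 72.3 CPM against 707 and 636 CPM (log2 fold change 3.55 ± 1.22, adjusted p = 0.309, edgeR). HSP104, a disaggregase, was at 132 and 74.4 CPM against 222 and 158 CPM. Other chaperones did not follow: SSA2 was at 110 and 124 CPM against 70.1 and 38.0 CPM, and HSC82 at 1974 and 1827 CPM against 2478 and 1599 CPM. Of 36 heat shock and chaperone genes tested, 23 had a log2 fold change above 0 and 13 below, with a median of 0.27. At an unadjusted p under 0.05 stood 5 higher and 1 lower, against 5.25% and 4.7% of all genes (edgeR).

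**Figure D2:**
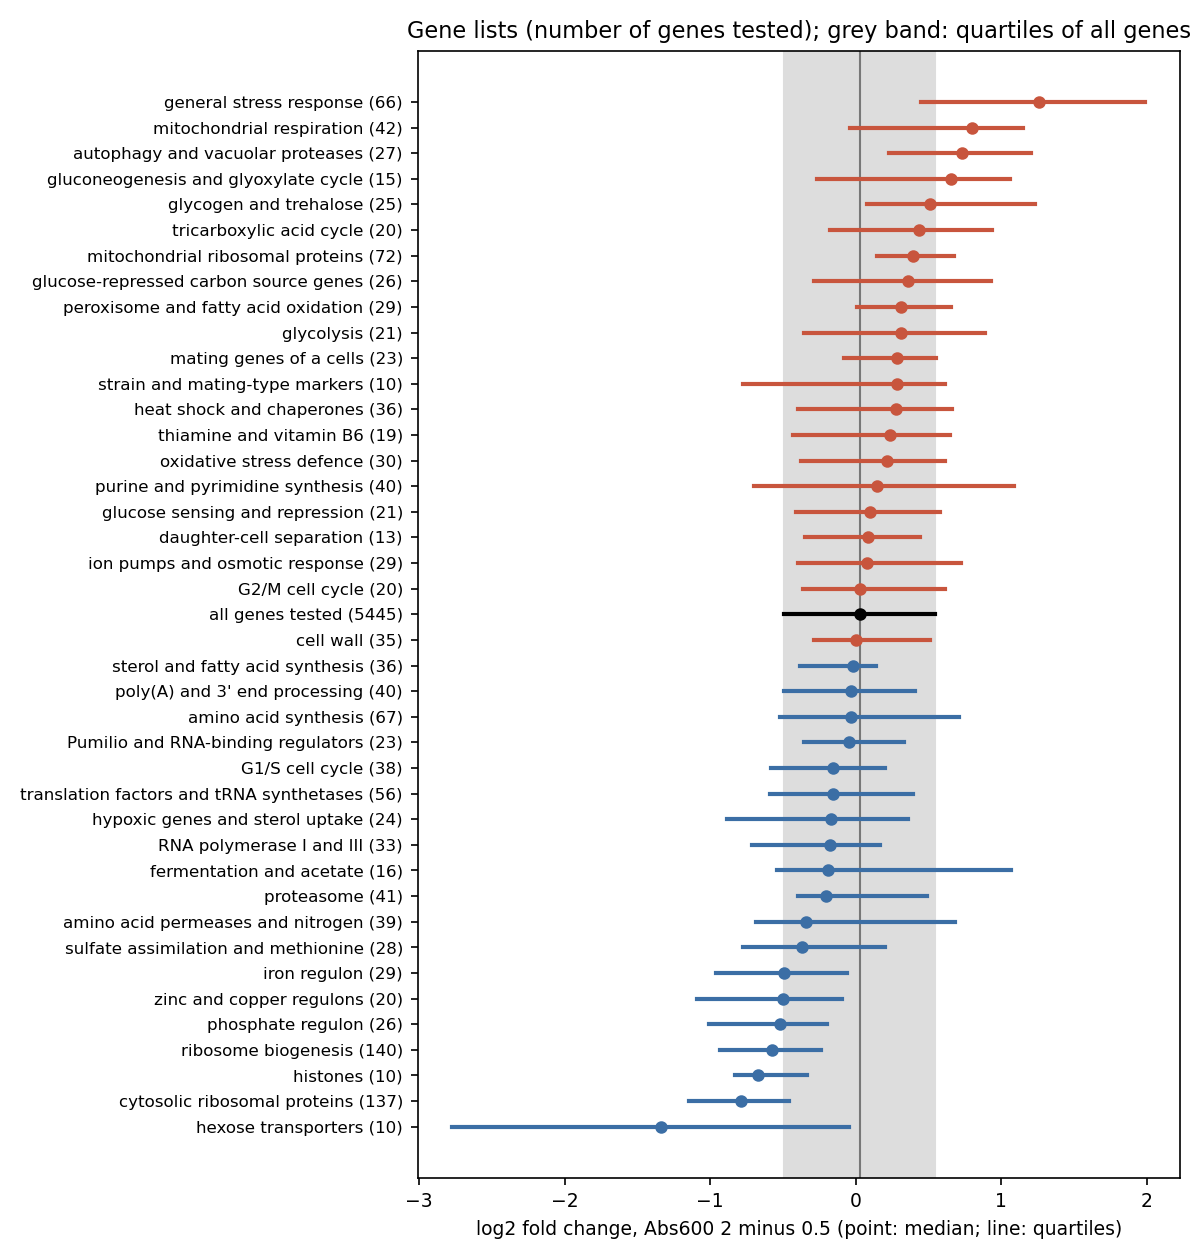
Median (point) and quartiles (line) of the log2 fold change from Abs600 0.5 to 2 for each gene list with at least 10 genes tested, with the number tested in parentheses; the grey band and black row are all 5445 genes. The general stress list lies highest, with a median of 1.26, and the hexose transporters lowest, with -1.34, a direction that turned to 0.39 with ORF tags alone.

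Mitochondrial functions were represented by several lists with positive medians. Of 42 genes of respiration 12 were higher at an unadjusted p under 0.05 and 0 lower, against 5.25% and 4.7% of all genes. DESeq2 called 4 of the 42 higher, against 1.33% over all genes. Their median log2 fold change was 0.80. SDH4, a membrane subunit of succinate dehydrogenase, stood at 23.8 and 7.58 CPM at Abs600 0.5 and at 77.9 and 91.6 CPM at Abs600 2 (log2 fold change 2.40 ± 0.63, adjusted p = 0.138, edgeR). SDH2, its iron-sulphur subunit, was at 27.5 and 33.8 CPM against 123 and 97.7 CPM. COX5B, the low-oxygen isoform of a cytochrome oxidase subunit, was at 216 and 163 CPM against 483 and 623 CPM. ATP18, a subunit of ATP synthase, was at 512 and 452 CPM against 1699 and 950 CPM. DESeq2 called these 4 genes higher, and in each of them both libraries at Abs600 2 exceeded both at 0.5. For SDH2 the direction rested on tags over 200 nt after the ORF: with a 200-nt window its log2 fold change was -0.78.

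Not every respiratory gene followed. CYC1, the main cytochrome c, was at 75.1 and 37.2 CPM against 69.1 and 143 CPM, while CYC7, its minor isoform, was at 4.58 and 4.13 CPM against 21.3 and 20.5 CPM. CIT1, mitochondrial citrate synthase, was at 66.0 and 22.7 CPM against 59.6 and 64.1 CPM. In the outer membrane, POR1, the porin that passes metabolites, was at 719 and 788 CPM against 2885 and 2121 CPM (log2 fold change 1.73 ± 0.40, adjusted p = 0.104, edgeR; called by DESeq2). TOM20, a receptor for imported proteins, was at 66.0 and 72.3 CPM against 433 and 196 CPM, and was called by DESeq2 as well. STF1, a regulator of ATP synthase, was at 70.5 and 54.4 CPM against 321 and 511 CPM.

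Proteins of the mitochondrial ribosome formed the most even list. Of 72 genes tested 62 had a positive log2 fold change, against 2808 of 5445 over all genes, with a median of 0.40. At an unadjusted p under 0.05 stood 11 higher and 0 lower, against 5.25% and 4.7% of all genes. DESeq2 called 3 higher, MRPL39, MRPS5 and MRP1, against 1.33% over all genes. MRPL39 was at 78.8 and 84.7 CPM against 410 and 189 CPM, and MRPS5 at 21.1 and 23.4 CPM against 131 and 59.1 CPM. The median difference between single libraries at the 2 densities was 0.38, 0.43, 0.40 and 0.44 on the log2(CPM + 1) scale over the 4 possible pairs. Autophagy and vacuolar protease genes were similarly even, at 0.66 to 0.74 over the 4 pairs. Their member PRC1, carboxypeptidase Y, stood at 424 and 508 CPM against 1375 and 1168 CPM.

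Several purine and one-carbon genes, picked after their values were seen, were higher in both libraries at Abs600 2, while others were not. ADE4, the first enzyme of the purine pathway, stood at 124 and 87.5 CPM at Abs600 0.5 and at 465 and 651 CPM at Abs600 2, with a log2 fold change of 2.40 ± 0.42 (adjusted p = 0.0575, edgeR). ADE17, which carries out the last steps to inosine monophosphate, was at 106 and 88.9 CPM against 912 and 1248 CPM (log2 fold change 3.47 ± 1.25, adjusted p = 0.346, edgeR). ADE1 was at 881 and 969 CPM against 4429 and 4592 CPM, and ADE2 at 78.8 and 70.3 CPM against 331 and 174 CPM. GCV2, of the glycine cleavage system that supplies one-carbon units, was at 74.7 and 48.2 CPM against 443 and 498 CPM, and SHM2, serine hydroxymethyltransferase, at 221 and 136 CPM against 667 and 1018 CPM. ADE6, ADE12 and ADE16, of the same pathway, had overlapping groups: ADE6, for example, was at 412 and 428 CPM against 302 and 884 CPM. HPT1, which salvages hypoxanthine and guanine, overlapped as well, at 565 and 679 CPM against 175 and 626 CPM. IMD2, of guanine nucleotide synthesis, was lower in both libraries, at 20.6 and 19.98 CPM against 8.80 and 9.99 CPM.

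ADE17 and ADE1 varied widely in groups that share the fit's estimate of the spread. ADE17 was in the unsorted particles at 80.0 ± 107 CPM (SD, n = 3), and ADE1 at 898 ± 998 CPM (SD, n = 3). Fitted with the 4 batch libraries alone, edgeR called 16 of 5063 genes tested, 14 higher and 2 lower, against 0 of 5445 in the main fit. Among the 16 were ADE17, ADE4, GCV2, HSP26, GPH1, GAD1, HXK1, WSC4 and, lower, HXT1. Whether the spread in the other groups made the difference between the 2 fits was not tested. URA2, the first enzyme of pyrimidine synthesis, was at 115 and 136 CPM against 965 and 385 CPM and was called by DESeq2. The whole list of purine and pyrimidine synthesis was spread in both directions. Its 40 members had a median log2 fold change of 0.15, against 0.03 over all genes, with 24 above and 16 below 0. The quartiles were -0.70 and 1.09, against -0.49 and 0.55 over all genes. At an unadjusted p under 0.05 stood 7 higher and 5 lower, against 5.25% and 4.7% of all genes. WSC4, a member of the cell wall stress sensor family, had the lowest p of all genes, at 27.9 and 24.1 CPM against 215 and 203 CPM (log2 fold change 3.00 ± 0.48, adjusted p = 0.0575, edgeR).

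Cytosolic ribosomal proteins were the list with the most members on 1 side. Of 137 genes 129 had a negative log2 fold change, against 2631 of 5445 over all genes, with a median of -0.79 (quartiles -1.14 and -0.46). At an unadjusted p under 0.05 stood 40 lower and 0 higher, against 4.7% and 5.25% of all genes. DESeq2 called 6 lower, against 0.796% over all genes, with RPL18B, RPS14B, RPS21A, RPS18B and RPL6A among the 6. RPS14B stood at 691 and 750 CPM at Abs600 0.5 and at 70.4 and 164 CPM at Abs600 2 (log2 fold change -2.62 ± 0.57, adjusted p = 0.0915, edgeR). RPL18B was at 473 and 242 CPM against 18.6 and 68.5 CPM. RPL3, which has no paralog, was at 640 and 726 CPM against 188 and 274 CPM (log2 fold change -1.56 ± 0.48, adjusted p = 0.229, edgeR). Most ribosomal protein genes are paralogous pairs, and tags matching both copies could have been split between them.

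Other parts of the translation apparatus were mixed. EFB1, a subunit of elongation factor 1, was at 11500 and 1758 CPM against 890 and 1340 CPM, so most of its difference came from replicate 1 at Abs600 0.5. EFT2, elongation factor 2, was at 428 and 473 CPM against 132 and 91.8 CPM and was called by DESeq2. RPC40, a subunit shared by RNA polymerases I and III, was at 270 and 109 CPM against 25.7 and 55.8 CPM and was called too. Across 56 translation factors and tRNA synthetases the median log2 fold change was -0.16. At an unadjusted p under 0.05 stood 2 higher and 5 lower, against 5.25% and 4.7% of all genes.

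Ribosome biogenesis genes, which build the subunits in the nucleolus, had a median log2 fold change of -0.58 over 140 genes. At an unadjusted p under 0.05 stood 0 higher and 20 lower, against 5.25% and 4.7% of all genes. DESeq2 called 0 of the 140. NSR1, nucleolin, was at 222 and 484 CPM against 156 and 60.2 CPM. ENP1, needed for the small subunit, was at 220 and 105 CPM against 128 and 40.2 CPM, with overlapping groups. The list's position depended on the culture. Replicate 1 at Abs600 2 gave medians of 0.19 and -0.33 against the 2 libraries at Abs600 0.5, and replicate 2 gave -0.97 and -1.37. Without replicate 2 at Abs600 2 the median was -0.12, and without replicate 1 it was -1.22. Ribosomal protein genes had the opposite order, with -1.20 and -0.51.

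**Figure D3:**
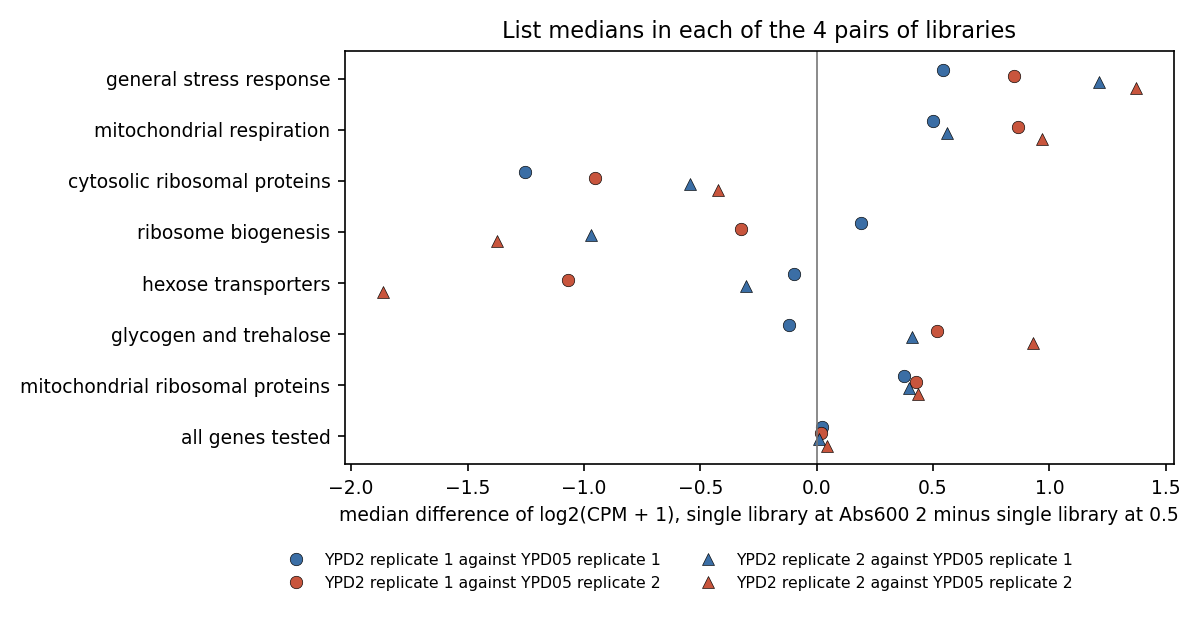
Median difference of log2(CPM + 1) between a single library at Abs600 2 and a single library at 0.5, for 7 lists and all genes; circles use replicate 1 at Abs600 2, triangles replicate 2, and colour gives the replicate at Abs600 0.5. Mitochondrial ribosomal proteins lie within 0.38 to 0.44, whereas ribosome biogenesis runs from 0.19 to -1.37.

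The histone genes had a median log2 fold change of -0.67 over 10 genes, 2 of them lower at an unadjusted p under 0.05 (4.7% over all genes). These were HTA1, a histone H2A gene, at 326 and 212 CPM against 134 and 88.8 CPM, and HHF2, a histone H4 gene, at 217 and 225 CPM against 106 and 91.8 CPM. CLN3, the cyclin that starts the cell cycle, was at 12.4 and 4.82 CPM against 3.05 and 0 CPM. ACT1, actin, was at 9331 and 6945 CPM against 11970 and 10160 CPM, a log2 fold change of 0.44 ± 0.42 (adjusted p = 0.764, edgeR). MFA2, an a-factor gene, was at 138 and 85.4 CPM against 188 and 114 CPM.

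Several metal and nutrient carriers, picked after their values were seen, were lower at Abs600 2. CTR1, the plasma membrane copper transporter, was at 157 and 134 CPM against 46.7 and 38.6 CPM. CTR2, the vacuolar copper transporter, had 15 and 18 tags at Abs600 0.5 and 0 and 0 at Abs600 2, at least 21.1-fold lower against a floor of 3 tags over the group. SIT1, a siderophore iron carrier, was at 110 and 55.1 CPM against 16.6 and 10.5 CPM, and ATO3, a putative ammonium exporter, at 56.3 and 71.6 CPM against 7.11 and 12.2 CPM. FCY21, a putative purine-cytosine permease, was at 62.8 and 33.1 CPM against 5.76 and 2.50 CPM (log2 fold change -3.54 ± 0.67, adjusted p = 0.0653, edgeR). DESeq2 called these 5 genes lower, which is why they are named, against 0.796% of all genes. In the lists, 7 of 29 iron regulon genes, 5 of 20 zinc and copper genes and 15 of 39 genes of amino acid permeases and nitrogen had a log2 fold change above 0. DESeq2 called 1, 2 and 0 genes of these 3 lists lower. It also called ILV5, of branched-chain amino acid synthesis, at 654 and 249 CPM against 50.4 and 76.0 CPM (0.02 on the log2 scale with a 200-nt window), and YHB1, the nitric oxide detoxifying flavohaemoglobin, at 1990 and 2242 CPM against 438 and 640 CPM.

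At the genes mutant in the strain, HIS3 kept tags, at 294 and 380 CPM against 675 and 682 CPM. These lay after its ORF, save for 8 of 2458 tags in replicate 2 at Abs600 2. URA3 had 30 and 52 tags against 1 and 17, all after the ORF, and LEU2 had 3 and 7 against 1 and 0.

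The encapsulated groups place the batch levels. GPH1 was at 10.5 ± 1.6 CPM (SD, n = 3) in the unsorted particles and at 2190 ± 439 CPM (SD, n = 2) in the unfixed ones, so both batch densities lay between. HXK1 lay between them in the same way, at 9.1 ± 3.3 CPM (SD, n = 3) and 1949 ± 44 CPM (SD, n = 2). WSC4 did not: it was at 13.4 ± 2.5 CPM (SD, n = 3) in unsorted and 27.7 ± 8.5 CPM (SD, n = 2) in unfixed particles, under both libraries at Abs600 2. ADE4 was at 153 ± 39 CPM (SD, n = 3) and 20.6 ± 3.6 CPM (SD, n = 2), likewise lower than at Abs600 2. HXT1, at 72.1 ± 78.7 CPM (SD, n = 3) and 329 ± 25 CPM (SD, n = 2), was at its lowest group mean at Abs600 2 among the 5 groups fitted.

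Transcript ends lay nearer to the ORF at Abs600 2. For each gene the distance from the ORF's end to the mean tag position was compared with limma over the same 12 libraries. With all tags of a gene, 7 of 2091 genes with at least 50 tags in each library passed an adjusted p of 0.05 with ends nearer (0.335%) and 0 with ends farther (0%). The unadjusted p was under 0.05 for 314. Because tags inside the ORF varied between replicates, the test was repeated, after the data had been seen, with tags after the ORF alone. Then 64 of 1877 genes were nearer (3.41%) and 0 farther (0%), and 642 had an unadjusted p under 0.05. In 1446 genes (77% of those tested) both libraries at Abs600 2 lay nearer than both at 0.5, and in 11 (0.586%) both lay farther. The median shift was -8.01 nt.

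Both cultures at Abs600 2 had nearer ends over the whole set of genes. The median gene had its mean end 104.6 nt after the ORF in each library at Abs600 0.5, and 89.3 and 97.4 nt after it at Abs600 2. In the other 8 libraries fitted the same median was between 103.5 and 107.8 nt, so with tags after the ORF the 2 libraries at Abs600 2 were the lowest of the 12. With all tags of a gene they were not: the median was 70.5 and 81.4 nt at Abs600 2, 89.9 and 89.3 nt at Abs600 0.5, and 80.4 and 79.7 nt in the unfixed particles. Replicate 1 lay farther from the rest than replicate 2. Without replicate 1 the median shift was -4.62 nt with 3 genes called, and without replicate 2 it was -11.1 nt with 571 genes called nearer and 2 farther. With either library at Abs600 0.5 left out, 0 genes were called in limma, with 355 and 370 at an unadjusted p under 0.05, and the median shift was -7.89 and -7.72 nt.

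**Figure D4:**
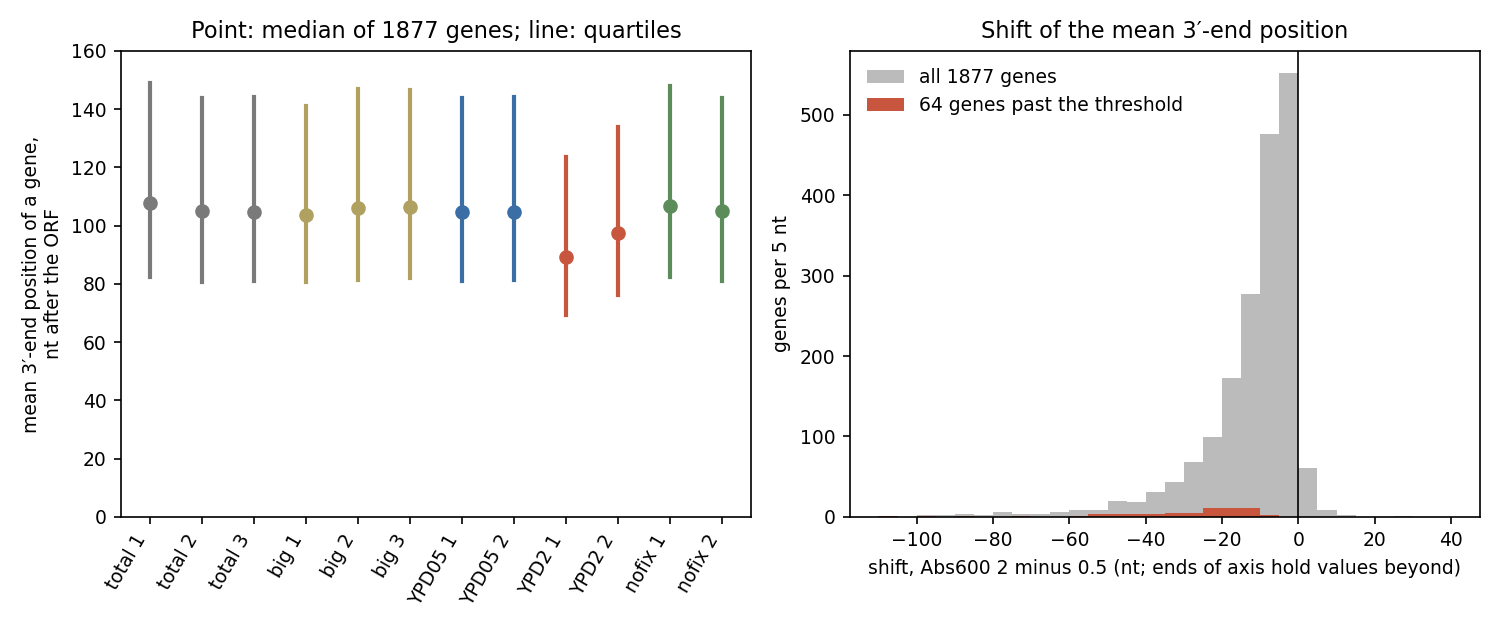
Left, median (point) and quartiles (line) over 1877 genes of the mean distance of a gene's transcript ends after the ORF, in nt, in each of the 12 libraries fitted. Right, number of genes by the shift from Abs600 0.5 to 2 in 5-nt bins, with the 64 genes past the threshold in red; the 2 libraries at Abs600 2 lie lowest, at 89.3 and 97.4 nt, and most shifts are negative.

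Over all 1877 genes, 77% were nearer without overlap and 0.586% farther, 3.41% were called, and the median shift was -8.01 nt. The gene lists lay on both sides of the 77%. Ribosomal protein genes were nearer without overlap in 116 of 134 and farther in 0, with a median of -6.64 nt. Glycolytic genes were nearer in 12 of 14, with 4 called and a median of -16.1 nt, and cell wall genes in 15 of 15 with a median of -18.7 nt. Genes of the general stress response were nearer in the 6 of 6 that could be tested. Other lists had fewer members nearer without overlap: 1 of 5 in the tricarboxylic acid cycle, 2 of 7 in the peroxisome and fatty acid oxidation, 6 of 13 among mating genes of a cells and 7 of 16 among genes for cleavage and polyadenylation. The list medians ran from -40.0 nt in 3 genes of daughter-cell separation to -0.31 nt in the peroxisome list, and no difference between lists was tested. The 64 called genes had a median level of 178 CPM at Abs600 0.5 and 168 CPM at Abs600 2, against 162 and 170 CPM in the 1813 genes tested but not called. In level, genes for cleavage and polyadenylation had a median log2 fold change of -0.03 over 40 genes, against 0.03 over all genes. Of the 40, 2 were higher and 4 lower at an unadjusted p under 0.05, against 5.25% and 4.7% of all genes.

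At single genes the same sites were used in different shares. The windows below are the genome sequence (R64) of the transcript strand at the site that gained most and the site that lost most at Abs600 2, from 20 bases before to 9 after, with the base of the tag in capitals. They are shown because these 2 sites of a gene had the largest gain and the largest loss in share.
TDH2 60 nt after the ORF, chrX:453614-453643, minus strand: tattaataattcatgctcatGacatctcat
TDH2 138 nt after the ORF, chrX:453536-453565, minus strand: tcagggattcgatttttttgGaagtttttg
CDC19 88 nt after the ORF, chrI:73356-73385, plus strand: catggtttttcttttcaactCaaataaaga
CDC19 164 nt after the ORF, chrI:73432-73461, plus strand: aaagagtattatgttattgtTaaccttttt
PFK1 100 nt after the ORF, chrVII:970662-970691, minus strand: tgtcataagacttatttatgTatctgttgt
PFK1 237 nt after the ORF, chrVII:970525-970554, minus strand: aatgaacatatttctaatccTaaccattag
NNR1 76 nt after the ORF, chrXIV:263628-263657, minus strand: tgtgaacaaatagccatcatGattctcttt
NNR1 350 nt after the ORF, chrXIV:263354-263383, minus strand: tttcaaaacccgcgcatactGaaaaaaaaa

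TDH2 (YJR009C), glyceraldehyde-3-phosphate dehydrogenase, had the lowest p with tags after the ORF. Its site at 60 nt held 10.4% and 14.7% of the gene's tags at Abs600 0.5 and 50.8% and 35.8% at Abs600 2. The site at 138 nt held 53.4% and 51.0%, against 9.84% and 22.7%. The site with the larger share was the far one at Abs600 0.5 and the near one at Abs600 2, in both libraries of each density. In the other 8 libraries fitted the near site held between 9.47% and 22.02%. The mean end moved by -36.7 ± 3.75 nt (SE; adjusted p = 0.0152, limma).

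CDC19 (YAL038W), pyruvate kinase, had 56.2% and 48.0% of its tags at 164 nt at Abs600 0.5 and 20.5% and 28.9% at Abs600 2. Its site at 88 nt held 2.17% and 1.72%, against 14.6% and 8.29%. This was not particular to Abs600 2, as that site held 8.89% and 8.35% in the unfixed particles. In the unsorted and big-colony libraries it held between 0.994% and 6.70%. Sites nearer still gained as well: 21 nt went from 1.49% and 0.726% to 11.8% and 4.52%, and 38 nt from 1.30% and 0.726% to 9.64% and 4.90%. The bases that follow the site at 88 nt hold 7 A in 10, against 2 in 10 after the far site. The mean end moved by -41.6 ± 4.76 nt (adjusted p = 0.0183, limma). PFK1 (YGR240C), the alpha subunit of phosphofructokinase, had 12.3% and 7.79% of its tags at 100 nt, against 47.4% and 26.8%. Its site at 108 nt held 3.22% and 6.06%, against 16.8% and 14.97%. Its mean end moved by -56.9 ± 8.28 nt (adjusted p = 0.0265, limma). TDH2, CDC19 and PFK1 encode enzymes of glycolysis.

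NNR1 (YNL200C), which repairs hydrated NADH and NADPH, had 5.65% and 2.39% of its tags at 76 nt, against 22.05% and 22.6%. Its far site at 350 nt held 64.8% and 78.0%, against 45.6% and 33.0%, and is followed by 10 A in 10 bases of genome. The mean end moved by -107 ± 14.4 nt (adjusted p = 0.0201, limma). The unfixed particles had 27.7% and 19.4% at the near site, close to Abs600 2. RPN11 (YFR004W), the deubiquitinase of the proteasome lid, had 16.2% and 12.9% of its tags at 58 nt, against 32.9% and 47.9%, and its mean end moved by -21.4 ± 2.78 nt (adjusted p = 0.0189, limma).

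**Figure D5:**
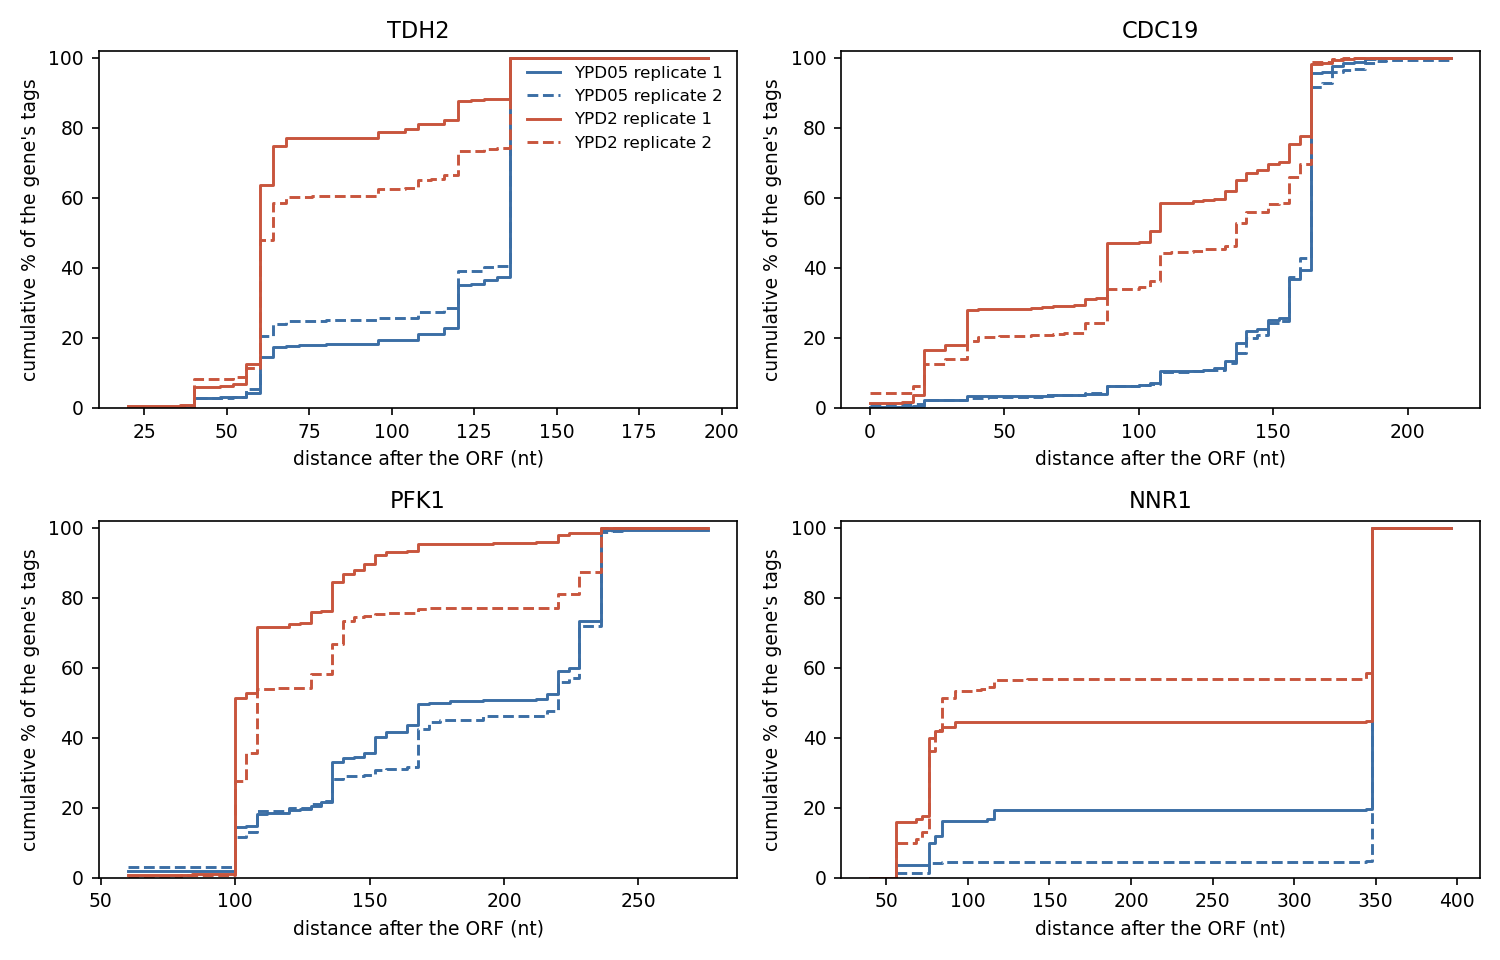
Cumulative percent of a gene's tags by distance after the ORF in 4-nt bins, for TDH2, CDC19, PFK1 and NNR1 in the 4 batch libraries; blue is Abs600 0.5, red Abs600 2, solid replicate 1 and dashed replicate 2. The red curves rise at nearer sites in each of the 4 genes, most in replicate 1 for TDH2, CDC19 and PFK1 and in replicate 2 for NNR1.

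Of the 7 genes called with all tags, 3 were also called with tags after the ORF, namely NNR1, CDC19 and TDH2. RPA190 (YOR341W), the largest subunit of RNA polymerase I, had the largest shift with all tags, -306 ± 25 nt (adjusted p = 0.00518, limma). Tags in the first 500 nt of its 4995-nt ORF were 80 of 1237 tags (6.47%) and 21 of 372 (5.65%) at Abs600 2, against 0 of 310 and 2 of 394 at Abs600 0.5, and at most 1.15% in the other 8 libraries. MAK3, a subunit of N-terminal acetyltransferase C, had 13.9% of 108 tags and 14.8% of 229 tags inside the ORF at Abs600 2. It had 0% in both libraries at 0.5. This was not particular to Abs600 2, as MAK3 had 25.7% and 20.5% in the unfixed particles. The 2 cultures at Abs600 2 did not share the main site: 365 nt before the ORF's end lay 26 tags in replicate 2 and 0 in replicate 1. ORC5, a subunit of the origin recognition complex, had 5.50% and 7.95% inside the ORF at Abs600 2, against 1.26% and 0% at 0.5. It had 4.14% in each unfixed library and 4% in replicate 3 of the big colonies.

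Among the measures of whole libraries, depth ordered by density, and both libraries at Abs600 2 held more tags than both at 0.5. With the 4 batch libraries thinned to the same number of gene tags, an alternative added after seeing the data, 66 of 1776 genes were called nearer and 0 farther with tags after the ORF (limma), with a median shift of -7.86 nt. Among tags after the ORF, the share whose next 10 genome bases hold at least 6 A was 22.4% and 24.4% at Abs600 0.5 and 25.6% and 21.5% at Abs600 2. Among tags inside the ORF it was 88.7% and 92.25% at Abs600 0.5 and 91.3% and 79.7% at Abs600 2. Whether tags inside ORFs, such as those of RPA190, MAK3 and ORC5, end transcripts was not tested. Tags antisense to a gene were 0.678% and 0.824%, against 0.599% and 0.883%. The groups overlapped in each of these shares, whose part in the shift was not tested. Whether the libraries of the 2 densities were prepared apart is not stated.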

How the data were processed

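The deposited table, per the labels' protocols made by the 3′T-fill method, holds whole-number counts of tags per genome position and strand for each library; the authors deposited them without normalization. CASAVA 1.8.2, GSNAP and the builds R64 and sacCer3 are named in the submitters' processing notes, and the handling of reads that match several places is not stated. Tags were summed per gene on the strand opposite to the table's strand column, the transcript strand, in the ORF and up to 400 nt after it but before the next gene on that strand (RefSeq annotation, R64, 6002 protein-coding genes). At 341 genes with no neighbour within 1000 nt, 94.8% to 96.6% of the batch libraries' tags lay on that strand.

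Genes passing filterByExpr (5445) were tested with edgeR 4.0.16 (quasi-likelihood, TMM, Benjamini-Hochberg) over 12 libraries in 5 groups, which share 1 estimate of the spread; the 4 small-colony libraries were left out. End positions were tested with limma 3.58.1 on the mean distance per gene, weighted by tags up to 200. Both scripts were tested on simulated data. Alternatives were DESeq2 1.42.0, limma-voom, other filters, windows, scalings, subsets, equal depth and a replicate block, under R 4.3.3. With 2 libraries against 2 an exact permutation test cannot go below p = 0.333, and measures of whole libraries are given as values with no test; intervals for counting error would not cover amplification, as no molecular identifiers are described.

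The 2 densities' libraries share replicate numbers, but the deviations of same-numbered libraries correlated at -0.169, so the numbers were not used to pair them. Replicates were not duplicates: chi-square per degree of freedom was 27.8 and 131. The comparison, the 41 gene lists and the named genes were chosen with earlier results of these data known. By the naming rule, genes are named where they pass the threshold, plus a fixed set named whatever its values: the hexose transporters, 27 genes of sugar, stress and growth, and the strain markers; the first part named no gene, so genes called by DESeq2 or of low p were added after seeing their values. Of 1489 list entries, 1487 matched the annotation.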

Additional observations from a re-analysis of the deposited data

How the results depend on the processing

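The count of genes called for level depended on the test. It was 0 with edgeR under median-of-ratios size factors, ORF tags alone, the 14-library fit, equal depth, the fit without unfixed particles and the 12-library replicate block. It was 104 with DESeq2, 9 with limma-voom, 51 with voom sample weights, 2 with no filter on low counts, 1 with a 200-nt window, 8 with tags after the ORF alone and 16 with the 4 batch libraries alone. Leaving out 1 batch library gave 0 to 6 calls, the 6 without replicate 2 at Abs600 2. With the 4 batch libraries alone, the replicate block gave 87 calls, and the crossed pairing 312. The numbers do not pair the cultures by any label, and the same 4 libraries with no block gave 16.

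The count of genes with moved ends was 7 in the main fit, 18 with at least 20 tags, 13 with at least 100, 1 with the 4 batch libraries alone, 4 at equal depth, 80 with the median position, 0 with the replicate block and 1 to 191 with 1 batch library left out. With tags after the ORF alone it was 64, and 66 at equal depth, 0 with the 4 batch libraries alone, 32 with the replicate block and 0 to 573 with 1 library left out (3 without replicate 1 at Abs600 2). The median shift was negative in each of these fits. At equal depth with all tags, NNR1 and TDH2 were no longer called (adjusted p = 0.0596 and 0.0567, limma).

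Among named genes, the direction turned in these fits, none of which called the gene; the cause was not tested. With ORF tags alone, the log2 fold change was 0.0540 for HXT1, 1.74 for HXT3, 0.31 for HXK2, -0.30 for GLK1, -2.71 for EMI2, -3.19 for TPS1, 0.35 for ADH1, 0.48 for ENP1, 0.12 for NSR1, 0.20 for RPL3, 1.29 for HTA1, 4.29 for HHF2, -3.08 for GPD1, -1.08 for GPG1, -6.67 for SDH2, 3.47 for RPL18B, 0.55 for RPS14B, 1.97 for ILV5, 0.28 for GPP1 and 0.0513 for PWP1. With the 200-nt window it was 0.0711 for HAP4, -0.78 for SDH2 and 0.0178 for ILV5. HXT10 was at -0.28 in both voom fits, -0.17 with the block and -1.09 after the ORF, and SUC2 at 0.12 at equal depth. With 1 library left out, the ranges were -1.37 to 0.72 for HXT10, -7.59 to 0.49 for ADH2, -1.19 to 0.44 for SUC2, -1.38 to 0.28 for HXT3, -2.55 to 0.12 for HAP4, -0.42 to 1.20 for PCK1, -0.26 to 2.37 for CTT1, -0.11 to 1.44 for CIT1 and -0.0097 to 1.05 for GSY2. The stress list's median was 1.15 to 1.42 in all fits but the one without replicate 2 at Abs600 2 (0.74). The hexose transporter list's median ran from -1.89 to 0.39, positive with ORF tags alone. For cytosolic ribosomal proteins the median ran from -1.20 to -0.16, and for ribosome biogenesis from -1.22 to -0.12. It ran from 0.29 to 0.99 for respiration, 0.12 to 0.46 for mitochondrial ribosomal proteins and 0.29 to 1.05 for glycogen and trehalose.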
